A study of Drosophila melanogaster with 12 samples.

Results

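The base of the X chromosome is the last 1.42 Mb of the arm before the centromere, here the GATC fragments of X that start at position 21000001 or later in the fly genome build dm3, up to the last base at 22422827. A GATC fragment is the stretch between neighbouring GATC sites, the sequence that the Dam methyltransferase modifies. Fragments were members if at least 1 of the 3 tissue profiles gave them a score, which held for 1720 of the 3791 fragments listed there, out of 215096 scored among 356504 listed in the whole table. The stretch was chosen by position and selected on these same scores, because the largest excess of fat body over brain had been seen there, so its levels and differences are given as a description, with no test.

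Polycomb is a chromodomain protein of a repressive complex that recognises methylated lysine on histone H3 and keeps many developmental regulator genes silent in cells that do not use them. The DNA around a fly centromere is rich in transposon remnants and is packed by other proteins, mainly those of the HP1 family, and euchromatin passes into this heterochromatin gradually along the base of X. The base is known for flamenco, a locus whose transcripts give rise to piRNAs that silence transposons in ovarian follicle cells, for fog, which encodes a secreted signal for cell shape change in gastrulation, for stnA, whose product acts in synaptic vesicle recycling, and for su(f), a factor in messenger RNA 3′ end formation. A release 6 gene table lists DIP1, flamenco, fog, stnA and su(f) in this order towards the centromere. Since the scores are in release 5 coordinates, no gene, exon, intron or UTR was placed on them, and regions are named by position alone.

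Polycomb was mapped by DamID: a fusion of Dam to Polycomb marks the GATC sites around the protein, and free Dam gives the accessibility background. Each of 3 larval sources had 2 biological replicates with Dam-Polycomb and 2 with Dam only, 12 libraries in all, all from wandering larvae (the third instar) of Drosophila melanogaster raised at 25 °C. The central brain (without ventral nerve cord, 20 male larvae per sample) and the fat body (10 male larvae per sample) carried the same intein-containing Dam transgene behind an hsp70 promoter at the landing site ZH51C in a y,w background, with the 4-HT-intein at L127C and, for the fusion, PC joined to it; it was left uninduced in brain, whereas the fat body larvae were fed 4-hydroxytamoxifen at 25 uM. The glial profile came from central brains of 20 larvae of pooled sexes in which the recombinase source repoFlp5 opened the stop cassette of min.hsp70P-STOP#1-Dam, or of its fusion to PC, at the same landing site in a y,w/w background, so that Dam is made in cells with a history of repo activity within whole brains. Tissue and induction therefore changed together between brain and fat body, and tissue, DamID system and sex changed together in every comparison with glia, so these cannot be told apart.

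Each score is a log2 ratio of Dam-Polycomb to Dam that the authors averaged over replicates, so that a fragment has 1 value per tissue and no error between animals. Read depth is unknown. Every SD given is a spread over neighbouring fragments, not between animals. The profile medians over all scored fragments were -1.24 (brain), 0.09 (fat body) and -0.60 (glia), and "above the median" refers to these values. Comparing odd with even fragments put the scatter of a 10-kb mean at the base at 0.25 (brain), 0.29 (fat body) and 0.23 (glia).

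Less of the base was measured than of the rest of X. The brain profile scored 26.4% of listed fragments, the fat body profile 30.5% and the glial profile 42.0%, against 30.5%, 40.2% and 55.3% on distal X (positions below 21000001). The base did not have shorter fragments: 48.6% were under 200 bp there and 52.6% on distal X. Among fragments of 200 bp or more, brain scored 45.9% at the base, fat body 49.5% and glia 63.6%, against 57.5%, 67.7% and 83.5% on distal X. When X was divided backwards from the centromere end into windows as long as the base, all 14 distal windows had a larger scored share than the base in fat body and in glia, and 11 of 14 did in brain. Much of the deficit lay in a gap from 21510001 to 21830000, 320 kb in which every 10-kb bin had under 5 scored fragments in each profile. Of 740 fragments listed in that gap, brain scored 2, fat body 6 and glia 29. It contains a single fragment of 72392 bp listed from 21687257 to 21759648. Polycomb in the gap was thus not measured, rather than low.

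The base held little strong Polycomb in the brain or in glia compared with distal X. Only 6.10% of its scored brain fragments lay over 3 above the median, against 18.9% on distal X, and 2.07% of its glial fragments against 8.31%. In fat body the share was 10.7%, against 8.43% on distal X. Brain reached 1.75 in its highest 10-kb bin at the base, and 241 of 1699 distal X bins were higher. Fat body reached 3.79, with 59 of 1791 distal bins higher, and glia 2.22, with 138 of 2012 higher. The brain median was -0.94 at the base and -0.98 on distal X. The fat body median was 0.74 at the base and 0.22 on distal X, and only 1 of the 14 distal windows exceeded the base. In glia it was -0.66 at the base and -0.37 on distal X, with 11 of 14 windows higher than the base. Fat body scores were therefore shifted upward and glial scores slightly downward, while in brain the median was similar and both tails were thinner. Over 2 below the median lay 10.4% of brain fragments at the base, against 14.6% on distal X. The similar brain median covered a higher part distal to the gap (-0.13) and a lower part beyond it (-1.36).

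Proximal ends of the same length on the other large arms differed widely from one another, and the base of X fell within their range in brain. The brain median was 2.34 above the profile median at the base of 2L, 0.92 below it at 3R (-0.92), and far below it at 3L (-2.47) and 2R (-2.97), against 0.29 at the base of X. Those low values rested on few fragments, since 5.32% of fragments at the base of 3L and 7.01% at that of 2R had a brain score. In fat body the base of X, at 0.65 above the profile median, lay higher than all 4 other ends, which ranged from -1.15 to 0.43. In glia it was at -0.06, inside their range of -1.59 to 0.08. Fragments over 3 above the median made up 43.0% of scored brain fragments at 2L, 12.9% at 3R and 0% at 3L and 2R. The glial shares were 19.6% (2L), 9.01% (3R), 2.10% (3L) and 1.33% (2R), so the low shares at the base of X were not particular to it. The small XHet scaffold, unplaced heterochromatin of X, had 38 scored brain fragments of 632 with a median of -2.71, and 97 scored fat body fragments with a median of 0.45.

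**Figure D1:**
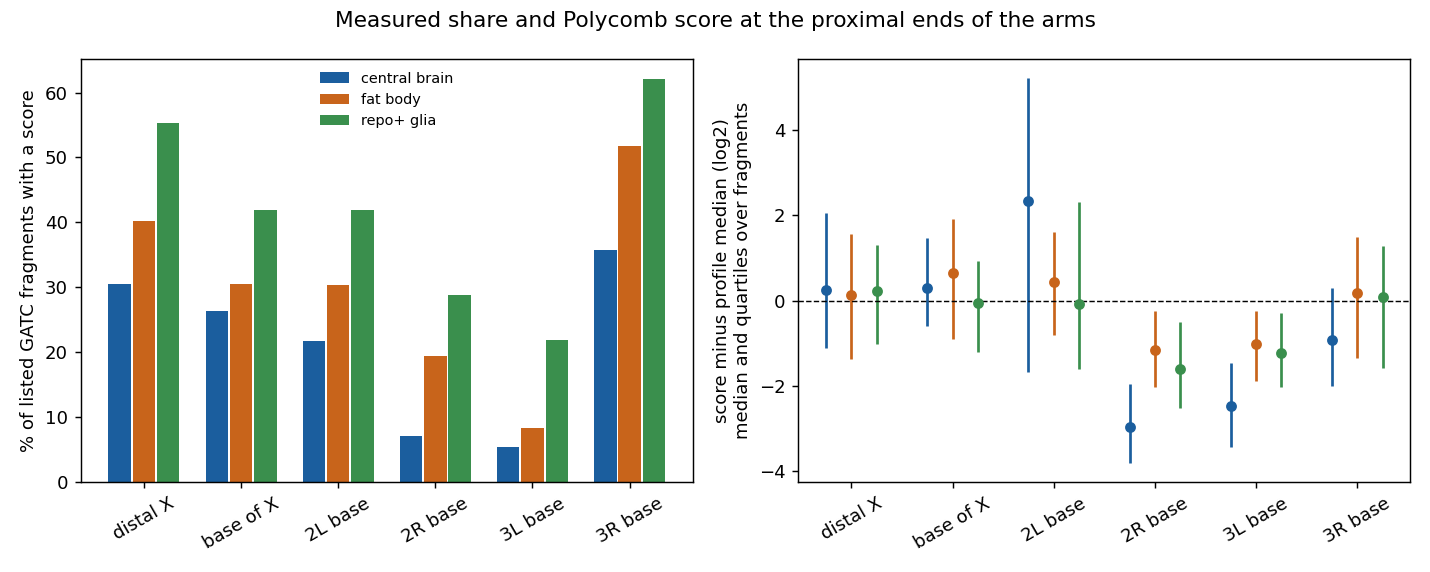
Left, the share of listed GATC fragments with a score (%) on distal X, at the base of X and at equally long proximal ends of 2L, 2R, 3L and 3R in central brain, fat body and repo+ glia; right, the score relative to the profile median (log2), with points for the median and bars for the quartiles over fragments. The base of X has the highest fat body median of the 5 proximal ends (0.65), while its brain median (0.29) lies between those of 2L (2.34) and 2R (-2.97).

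Low stretches of fat body and glia coincided in 3 places, with exceptions in single bins, and brain formed a low stretch only at the first of these. The other low stretch of brain, from 21890001 to 21910000 (mean -3.38, 21 fragments), was not a low stretch in fat body (-0.65) or glia (-1.85). Glia was lowered there too, at -1.26 relative to its median. Its bin from 21890001, at -0.71 relative to the median, did not pass the threshold, while that from 21900001 did (-1.82). From 21190001 to 21240000 the means were low in all profiles, with brain at -4.45 (29 fragments), fat body at -1.85 (88 fragments) and glia at -2.19 (85 fragments). Glia was not low throughout: in the bin from 21200001 it had -0.31 (25 fragments), 0.28 above its median, while brain had -3.90 and fat body -1.42. That bin gave the largest excess of glia over brain at the base, 3.58, and the second-largest of glia over fat body, 1.11. A second shared trough began at 21470001, where brain stepped by -3.26 from the preceding bin, fat body by -3.55 and glia by -3.23, and every bin with at least 5 scores from there to the unmeasured gap lay below its profile median. Brain rested there on 5 scores in the bin from 21470001 (SD 2.09) and 5 in that from 21500001 (SD 1.99). Beyond the gap, the bin from 21830001 had enough scores in glia alone (8 fragments) and stood at 0.01, above the glial median. The next 50 kb, from 21840001 to 21890000, were low in fat body and glia and in the few brain fragments scored there, with only 1 of the 5 bins holding at least 5 brain scores. Brain was at -4.66 (14 fragments), fat body at -1.42 (87 fragments) and glia at -2.25 (87 fragments). In the 7 bins of the base with a brain mean under -4, 20.4% of fragments had a brain score, against 56.1% with a fat body score and 55.7% with a glial score. In the other 82 bins with at least 5 brain scores, 43.7% of fragments were scored in brain. Low brain values thus came with missing brain values, whose part in the level was not tested.

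**Figure D2:**
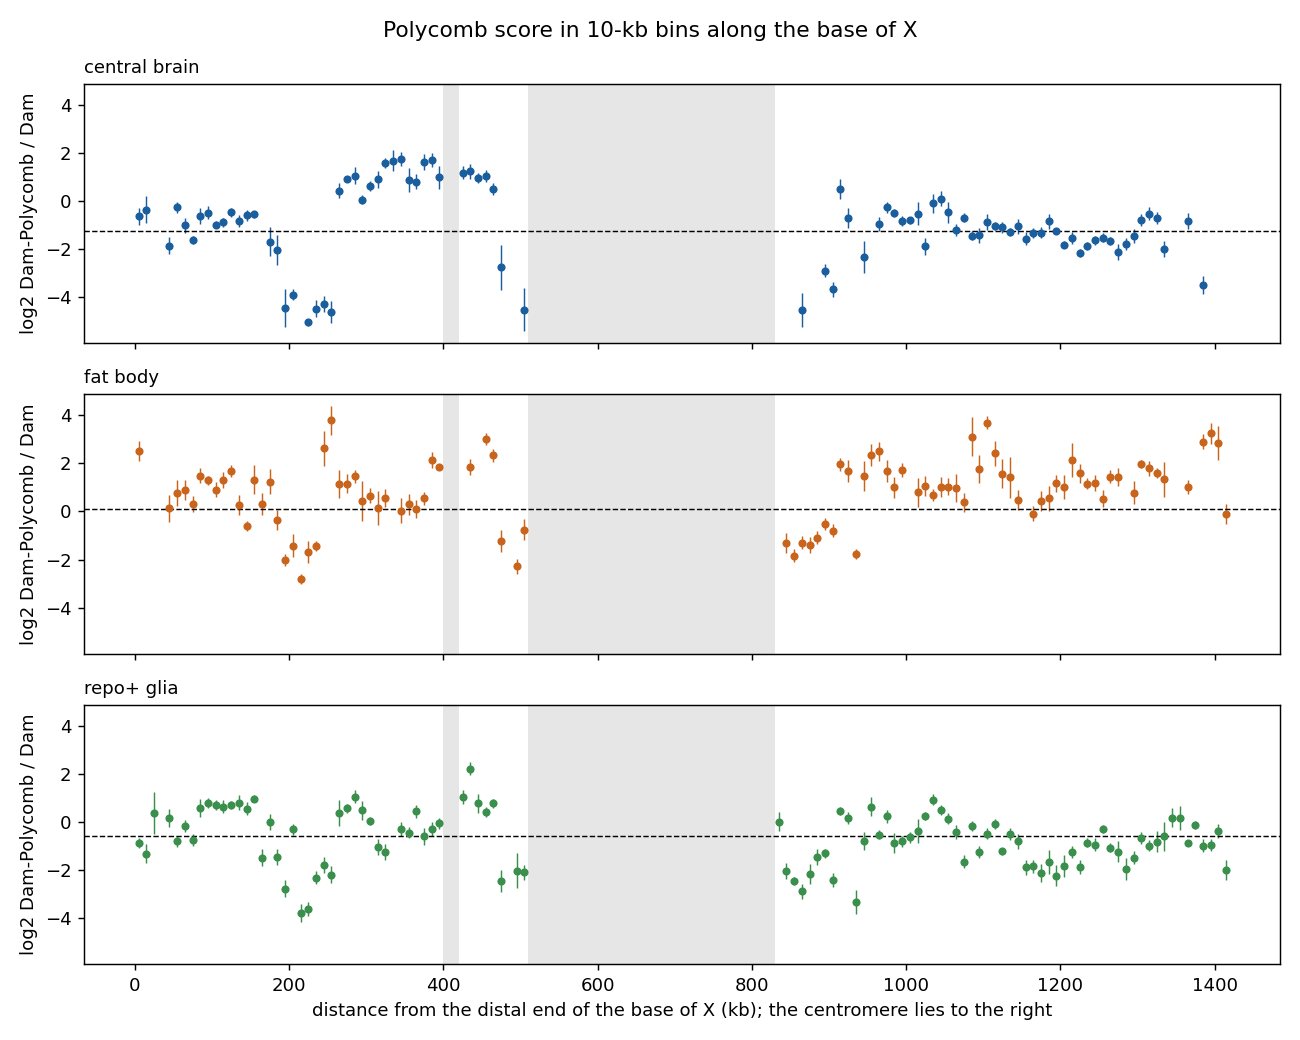
Mean Polycomb score (log2 Dam-Polycomb / Dam) of 10-kb bins with at least 5 scored fragments against distance from position 21000001 (kb), in central brain, fat body and repo+ glia; bars are the standard error over fragments of the bin, dashed lines the profile medians, and grey marks stretches with under 5 scored fragments per bin in every profile. The bins at 240 and 250 kb are high in fat body (2.62 and 3.79) and low in brain (-4.29 and -4.62), and brain is then raised over 140 kb.

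Between the fat body and the other profiles the largest contrast was a block of Polycomb from 21244953 to 21255751, 10.8 kb long, found as the longest run of fat body fragments over 3 above the median. Its 24 scored fat body fragments ranged from 3.85 to 8.05, with a median of 5.94. The 10 fragments with a brain score ranged from -5.70 to -2.58 (median -3.99), and the 30 with a glial score from -4.66 to 0.14 (median -1.19). No brain or glial fragment of the block reached the lowest fat body score.

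Because high fat body scores defined the block, its excess over the other profiles is a description only. The 10 fragments of the block scored in all 3 tissues had a mean of 5.46 (fat body), -4.09 (brain) and -1.11 (glia). Fat body minus brain ranged from 6.84 to 12.0 on them.

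In fat body the block began and ended within a few fragments. The fragment just before it, from 21244567 to 21244952, had 1.64 in fat body, and the next, from 21244953 to 21245187, had 3.93. On the centromere side the score went from 3.85 (21255141 to 21255751) through 2.69 (21255752 to 21256058) to 0.81 (21256226 to 21256955). Within the block the highest scores were 8.05 from 21248241 to 21248735 and 8.02 from 21249791 to 21250100, where brain had -3.79 and -4.02 and glia -0.83 and 0.13. Brain was at -6.37 in the fragment just before the block and at -3.96 in the first fragment of it.

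**Figure D3:**
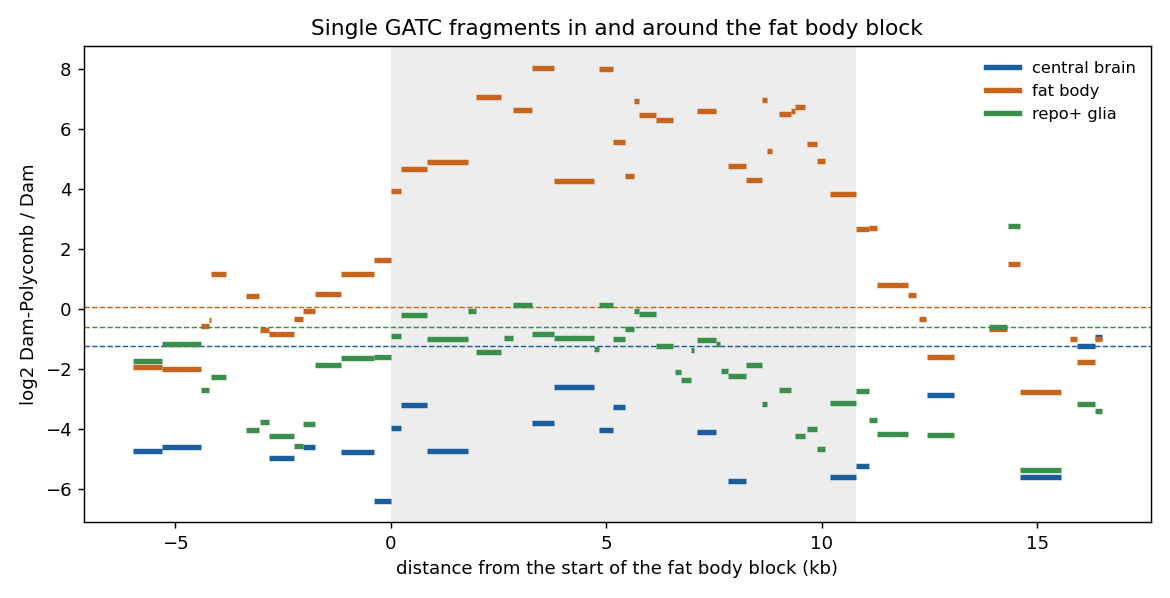
Scores of single GATC fragments (log2 Dam-Polycomb / Dam) in and up to 6 kb beside the fat body block, against distance from its start (kb); each bar spans 1 fragment, dashed lines are the profile medians and grey marks the block. All fat body fragments in the block lie at 3.85 or higher, all brain fragments at -2.58 or lower.

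The block can be set beside other runs found in the same way, with the reservation that it helped to choose this stretch. Of 74 fat body runs of at least 5 fragments on distal X, 68 had at least 3 brain scores, and their mean fat body score exceeded the mean brain score by a median of 0.71 and at most 6.58. On the other arms the median over 278 such runs was 0.30 and the largest value 7.14. In the block the difference was 9.90. The block lay inside a low stretch of brain, from 21190001 to 21260000 (mean -4.44, 46 fragments). It also lay inside a low stretch of glia, from 21210001 to 21260000 (mean -2.51, 90 fragments). The brain mean was -4.09 in the block, against -4.45 from 21190001 to 21240000, so low brain scores were not confined to the block. Brain means were below the brain median in 7 of the 68 runs on distal X and in 16 of the 278 on other arms. Length alone did not set the block apart, since 3 runs on distal X and 12 on other arms had as many fragments.

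The brain profile had its own raised stretch right beside the block. From 21260001 to 21400000, over 140 kb, the brain mean was 1.06 (SD over fragments 1.18, 182 fragments), 2.30 above the brain median. It began with a step of 5.05 between the bins on either side of 21260001, from -4.62 to 0.43, when the median step between neighbouring brain bins at the base was 0.35. The highest bins were those from 21340001 (1.75, SD 1.17, 16 fragments), from 21380001 (1.71, SD 1.19, 16 fragments), from 21330001 (1.67, SD 1.16, 7 fragments), from 21370001 (1.61, SD 1.07, 11 fragments) and from 21320001 (1.57, SD 0.81, 14 fragments). These levels were broad and shallow rather than peaked: only 2 runs of at least 5 brain fragments over 3 above the median occurred at the base, from 21323348 to 21327769 (mean 2.39) and from 21343604 to 21345737 (mean 2.97). Per 1000 scored fragments that is 2 runs, against 7.94 on distal X, where the longest run had 90 fragments.

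Glia and fat body followed the brain over part of this stretch. Their means over the 140 kb were -0.06 and 0.86, or 0.54 and 0.77 above their medians. In the bin from 21280001 all 3 were raised, with brain at 1.05, fat body at 1.46 and glia at 1.05. In the bin from 21320001 brain was at 1.57 while fat body was at 0.55 and glia at -1.24, below its median. This bin gave the largest excess of brain over glia at the base, 2.81. The 5 bins with the largest excess of brain over glia (1.94 to 2.81) and the 5 with the largest excess over fat body (0.69 to 1.72) all lay inside the stretch. Because high brain bins defined the stretch, this is a description only.

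Raised Polycomb common to the 3 tissues was found from 21420001 to 21470000, just before the second trough. Brain had a mean of 0.96 there (57 fragments), fat body 2.25 (37 fragments) and glia 1.05 (62 fragments), which is 2.20, 2.16 and 1.65 above the medians. The bin from 21430001 held the highest glial mean of the base, 2.22 (SD 1.05, 15 fragments), with 1.23 in brain and 1.85 in fat body. The bin from 21450001 was among the 5 highest of fat body, at 3.02 (SD 0.68, 7 fragments).

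In glia the longest raised stretch ran from 21080001 to 21160000, with a mean of 0.74 (139 fragments), 1.33 above the median. Fat body was 0.86 and brain 0.56 above their medians there. This stretch held 2 of the 5 bins with the largest excess of glia over fat body, from 21140001 (0.56 against -0.62) and from 21130001 (0.80 against 0.26). Glia had no run of 5 fragments over 3 above its median anywhere at the base, and its longest run there had 2 fragments, against 99 on distal X. Opposite in sign, the 6 bins from 22150001 to 22210000 had a glial mean of -1.91, 1.31 below the median, with fat body 0.60 above and brain 0.15 below theirs (-0.15).

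Nearest the centromere, beyond the gap, the profiles parted in level. From 21830001 to the end of the arm, 593 kb, the median brain fragment was at -1.36, the median fat body fragment at 0.87 and the median glial fragment at -0.93. Distal to the gap they had been -0.13, 0.55 and -0.14. Relative to the profile medians these values were -0.13, 0.77 and -0.33 beyond the gap and 1.10, 0.46 and 0.46 distal to it. Beyond the gap fat body exceeded brain by over 1 in 41 of 43 bins, against 73% of distal X bins, and glia in 42 of 52, against 52.8%. A high share over brain was not particular to this part. It was 88% at the base of 3R, 100% at 3L (7 bins) and 2R (22 bins), and up to 93.1% in the distal windows, but 40.3% at 2L. Brain exceeded fat body by over 1 in 0 of these bins, against 10.6% on distal X, and glia in 0, against 4.75%. In 1 of the 14 distal windows brain likewise exceeded fat body in 0 bins. Distal to the gap fat body exceeded brain in 24 of 39 bins and glia in 19 of 42.

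Several short fat body runs stood in this part. From 21946258 to 21950118 fat body had a mean of 4.43 (8 fragments), with -0.48 in brain (4 fragments) and 0.47 in glia. From 22103096 to 22106696 it had 4.00 (6 fragments), while brain was at -0.45 and glia at -0.33. This run lay in the bin from 22100001, the second-highest of fat body at the base, with 3.69 (SD 0.81, 9 fragments), -0.87 in brain and -0.49 in glia. The bin from 22080001 was at 3.11 in fat body (SD 1.81, 5 fragments), -1.45 in brain and -0.17 in glia. In the runs from 21946258 and 22103096 the brain and glial means lay above their profile medians (-1.24 and -0.60), unlike in the block.

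At the very end of the arm the contrast of fat body with brain seen in the block recurred at a lower level. In the 3 bins from 22380001 to 22410000 the fat body mean was 2.95 (26 fragments), brain -3.63 (15 fragments) and glia -0.86 (41 fragments). The bins from 22390001 and 22400001 held only 3 and 2 brain scores. Relative to its median glia was at -0.26 over this stretch, against -1.20 and -1.59 in the bins from 21240001 and 21250001. A fat body run from 22385972 to 22388544 had 6 scores of 3.12 to 5.47, while brain had -3.37 to -2.23 on 3 fragments. The bin from 22410001 then dropped to -0.12 in fat body and stood at -1.99 in glia. The remaining fat body run of the base lay from 21155879 to 21160596, with a mean of 4.36 (5 fragments), 1.11 in glia and -0.96 in brain (2 fragments). The base thus held 5 fat body runs, 4.32 per 1000 scored fragments, against 3.07 on distal X.

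Counted over 10-kb bins with at least 5 scores in both profiles, fat body was over 1 higher than brain in 65 of 82 bins at the base (79.3%), close to the background of 73% on distal X, and brain was higher in 3 (3.66%), against 10.6%. Brain values over 1 higher than glia occurred in 7 of 88 bins (7.95%), against 14.3% on distal X, and glial values over 1 higher than brain in 27 (30.7%), against 50.2%. Fat body was over 1 higher than glia in 61 of 94 bins (64.9%), against 52.8%, and glia higher in 2 (2.13%), against 4.75%. The median difference of fat body minus glia was 1.52, above all 14 distal windows, which ranged from 0.75 to 1.45. At the other proximal ends it was 1.09 (2L), 1.34 (3L), 1.33 (2R) and 1.27 (3R), and on the XHet scaffold 1.76 (7 bins). As deposited, the share of bins with fat body over glia at the 4 ends was 51.0%, 72.4%, 63.4% and 68.1%, around that of the base of X. With the profile medians subtracted, these shares were 28.1%, 24.1%, 25.6% and 28.3%. The base of X then had 44.7%, above all 4, and the XHet scaffold 71.4% (7 bins). The median of brain minus fat body, -2.08, lay inside the range of the distal windows, -2.58 to -0.88. The 5 bins with the largest excess of fat body over brain were those from 21250001 (8.41), 21240001 (6.91), 22380001 (6.39), 22100001 (4.56) and 22080001 (4.56). On shared fragments alone these differences were 7.36, 7.87, 6.16, 4.16 and 4.58.

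These counts depend on where each profile is centred. Subtracting the profile medians moved brain minus fat body by 1.33, brain minus glia by 0.64 and fat body minus glia by 0.69. After this, fat body was higher than brain in 34 bins and brain in 9, against 44% and 19.4% of distal X bins. For brain and glia the balance turned, with brain higher in 19 bins and glia in 12, against 21% and 32.2% on distal X. For fat body and glia the counts were 42 and 5, against 25.8% and 11.1%. After quantile normalization fat body was higher than brain in 23 bins and brain in 10 (distal X 30.6% and 20%), brain higher than glia in 23 and glia in 9 (18.4% and 27.4%), and fat body higher than glia in 34 and glia in 10 (18.2% and 17.4%). Under each of the 3 scalings the base had a larger share of bins with fat body over glia, and a smaller share with glia over brain, than distal X had.

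**Figure D4:**
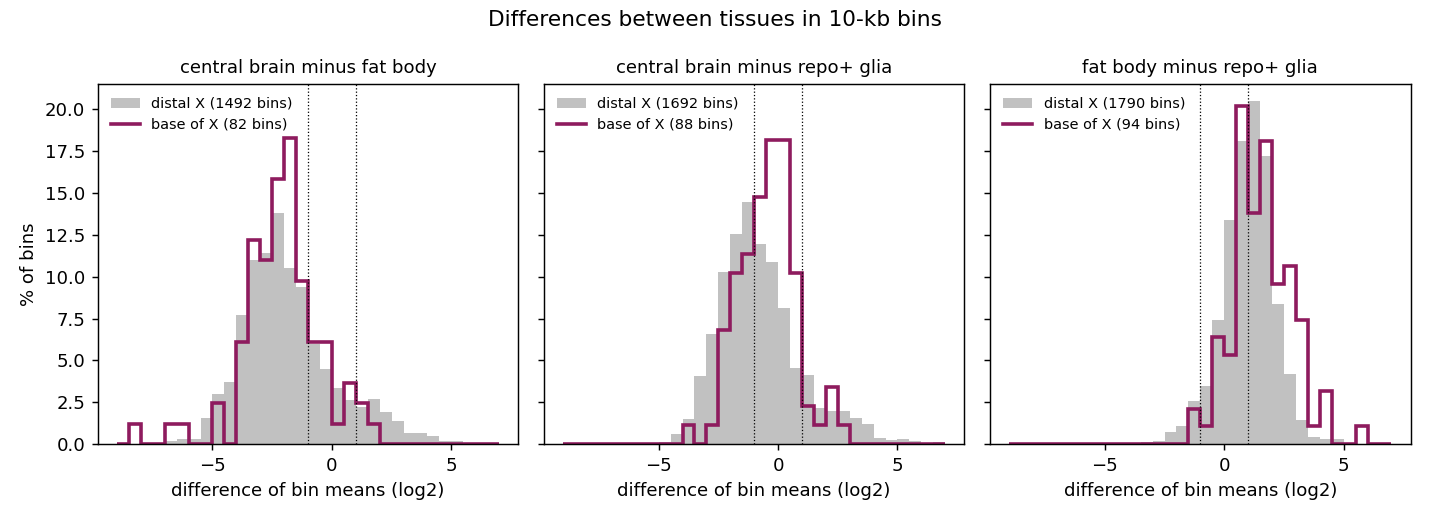
Distribution of the difference of 10-kb bin means (log2, as deposited) between each pair of tissues, as the % of bins, for distal X (grey) and the base of X (outline); dotted lines mark differences of -1 and 1. For fat body minus glia the base is shifted to the right (median 1.52 against 1.05), and for brain minus glia a smaller share of bins lies beyond the dotted lines (median -0.38 against -1.01).

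Relative to its own median, brain was raised by over 1 in 22 of 89 bins of the base (24.7%, against 26.4% of distal X bins) and lowered by over 1 in 13 (14.6%, against 27.9%). Fat body was raised in 44 of 94 bins (46.8%, against 34.8%) and lowered in 13 (13.8%, against 19.4%). Glia was raised in 21 of 105 bins (20.0%, against 22.6%) and lowered in 25 (23.8%, against 20.7%). Among the 82 bins measured in all 3, 27 were raised in fat body alone (32.9%, against 18.6% on distal X), 6 in brain alone (7.32%, against 7.77%), 3 in glia alone (3.66%, against 5.09%) and 6 in all 3 (7.32%, against 12.4%).

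The profiles were less correlated along the base than along distal X when fat body was involved. Over 10-kb bins, which are not independent and share fragments and scale, Pearson's r at the base was 0.32 between brain and fat body (82 bins), 0.68 between glia and brain (88 bins) and 0.52 between fat body and glia (94 bins). On distal X it was 0.57, 0.70 and 0.78. Bin means also varied less at the base, with an SD over bins of 1.59 (brain), 1.37 (fat body) and 1.15 (glia). On distal X this SD was 2.41, 1.61 and 1.68, and its part in r was not tested. All 14 distal windows had a higher r for fat body and glia than the base, from 0.60 to 0.88, but for brain and fat body 4 of 14 were lower. At the other proximal ends r for fat body and glia was 0.85 (2L), 0.58 (3L), 0.61 (2R) and 0.85 (3R). For brain and fat body it was 0.75 (2L), 0.79 (3L, 7 bins), 0.47 (2R, 22 bins) and 0.75 (3R). Without the 2 bins of the block, an alternative chosen after seeing the data, r was 0.47 between brain and fat body, 0.66 between glia and brain and 0.59 between fat body and glia. The value for brain and fat body also depended on the measure: Spearman's rho was 0.19, and 5-kb bins gave r of 0.18.

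The first position of the base is a convention. The bin just outside, from 20990001, had -1.69 (brain), 1.31 (fat body) and -0.95 (glia). The bin just inside, from 21000001, had -0.64, 2.50 and -0.86. Brain and fat body thus changed across this position by more than their median step between neighbouring bins of the base (0.35 and 0.58). One bin further out, from 20980001, the means were -3.54 (brain, 3 fragments), -0.83 (fat body) and -1.54 (glia).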

How the data were processed

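The authors' deposited table lists GATC fragments of build dm3 (release 5) and, per the file headers, a Dam-normalized replicate average for each tissue, taken here as a log2 ratio; each brain Dam-only replicate had 3 technical replicates, per the design text. Tools listed in the submitters' processing notes, without versions, are cutadapt, Bowtie2 and HTSeq. Neither the rule for unscored fragments nor the log base is given in the sources used. Scores 0.5 away from the commonest value, as log2 of doubled counts averaged over 2 replicates gives, numbered 781 (brain), 1630 (fat body) and 1828 (glia), and those at the natural-log or log10 equivalent 137 or fewer (tolerance 0.0011). Replicate values were not analysed here, so no test over samples was made.

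Members and lists were chosen with earlier results of these data known. Fragments were averaged in 10-kb bins by their start, with at least 5 scores, and a difference over 1 was counted. The bins named were the 5 highest per profile and the 5 largest differences per pair and direction. Raised stretches were at least 2 adjacent bins over 1 above the profile median, with single thin bins bridged; low stretches, runs (at least 5 successive scored fragments over 3 above the median) and windows were added after seeing the data. The binning was tested on simulated scores at the fragment positions of distal X only, so this does not cover the sparser scoring at the base. No sequence is printed, since no genome of this build was used here. Tools were Python 3.11.15, numpy 2.4.6, pandas 2.3.3, scipy 1.17.1 and matplotlib 3.10.9.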

Additional observations from a re-analysis of the deposited data

How the results depend on the processing

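No paired analysis was possible because each value is the authors' mean over replicates and no test was made; for the same reason no replicate could be left out. Counts of bins are given for fat body over brain (65 as reported), brain over fat body (3), glia over brain (27), brain over glia (7), fat body over glia (61) and glia over fat body (2), in this order. Centring moved the first 4 and the last to 34, 9, 12, 19 and 5. Quantile normalization gave 23, 10, 9, 23, 34 and 10, and a threshold of 2 gave 42, 0, 8, 4, 31 and 0. Requiring 10 fragments left 22 bins for fat body over brain, 13 for glia over brain and 32 for fat body over glia, as fewer bins were compared. Starting the base at 21500001 left 42, 0, 11, 0 and, for the last, 0. Bins of 5 kb gave 16 for brain over glia, and fragments scored in both profiles gave 11. Medians over fragments gave 1 for brain over fat body and 1 for glia over fat body, and fragments of 200 to 2000 bp gave 0 for the latter; the cause was not tested.

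The brain median at the base minus that of distal X was 0.039, and changed sign to -0.39 with the base from 21500001; it was 0.38 over bins, 0.0925 for fragments of 200 to 2000 bp, 0.24 for fragments scored in all 3 and 1.30 against the other proximal ends. The fat body value of 0.52 became 0.63, 0.48, 0.53, 0.19 and 0.84 in the same order. The glial value of -0.28 changed sign to 0.56 against the other proximal ends, and was -0.55 from 21500001, -0.19 over bins and -0.40 for fragments scored in all 3; the cause was not tested. Scored shares were 45.1%, 49.2% and 63.3% in brain, fat body and glia for fragments of 200 to 2000 bp, and 21.7%, 26.2% and 37.6% from 21500001. Spearman's rho was 0.19 between brain and fat body, 0.64 between glia and brain and 0.42 between fat body and glia; 5-kb bins gave r of 0.18 for brain and fat body and 0.54 for brain and glia, and r for fat body and glia was 0.59 without the block. Changes in medians and correlations were judged against odd and even fragments, a spread along the chromosome only. Counts of bins were judged by a fixed ratio to the main count, and scored shares by a binomial interval over fragments.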
